A study of Mus musculus with 12 samples.

Results

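The nuclear genes of the mitochondrial respiratory chain and of ATP synthase were followed in liver RNA from mice that lack the glucocorticoid receptor (GR) in the liver. Members were the genes whose array name or current RefSeq symbol begins with Nduf (a, b, c, s or v), Sdh (a to d), Uqcr, Cox4 to Cox8 or Atp5. The rule found 91 genes, read by 126 probes of the 41174 on the array. Of these, Emc8 and Dmac2l match only through older names that began with Cox4 and Atp5, encode no subunit of the complexes and are described apart, which leaves 89 module genes. Of the 89, 87 had a brightest probe that the scanner software marked as well above background on 4 or more of the 12 arrays. These 87 entered the tests, and 85 of them were so marked on all arrays. The tested genes were 41 of complex I (36 subunits and 5 assembly factors of the Ndufaf family), 4 of complex II, 8 of complex III, 17 of complex IV and 17 of complex V.

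The 3 groups were AAV-hGRB, given an adeno-associated virus that carries human GR beta, AAV-GFP, given the same kind of virus with green fluorescent protein, and PBS, given saline. Each group had 4 samples, all from 3-month-old male C57BL/6 mice, and the labels give the genotype GR knockout for every sample, controls included. GR beta is a splice isoform of the receptor that does not bind glucocorticoid agonists in the usual way. The sources used here do not name the promoter of the vectors, the Cre line, the dose or the time after injection. The labels do not state whether each sample is a separate animal, so p-values reflect sample-to-sample spread, which may be technical.

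The respiratory chain passes electrons from NADH (complex I) and succinate (complex II) through complex III to oxygen at complex IV, and pumps protons out of the mitochondrial matrix. ATP synthase, complex V, lets the protons flow back and makes ATP. Most subunits are encoded in the nucleus, and the hepatocyte, which runs gluconeogenesis and urea synthesis, is rich in mitochondria. The factors NRF1 and GABPA (an ETS protein) are known to bind the promoters of many of these genes.

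The promoters of 4 members from different complexes are shown because they hold the letters searched for these factors. They come from RefSeq on build GRCm38.p6, run from 250 bases before to 50 bases after the start of the gene on the strand of the gene, and capitals mark matches to CATGCGC (the core of the NRF1 site) or CCGGAAG (ETS) on either strand. Ndufa11 (chr17:56717512-56717811, plus strand) holds an NRF1 match and Cox6b1 (chr7:30626065-30626364, minus strand) an ETS match, while Uqcr11 (chr10:80406772-80407071, minus strand) and Atp5k (chr5:108434350-108434649, minus strand) hold both.
Ndufa11: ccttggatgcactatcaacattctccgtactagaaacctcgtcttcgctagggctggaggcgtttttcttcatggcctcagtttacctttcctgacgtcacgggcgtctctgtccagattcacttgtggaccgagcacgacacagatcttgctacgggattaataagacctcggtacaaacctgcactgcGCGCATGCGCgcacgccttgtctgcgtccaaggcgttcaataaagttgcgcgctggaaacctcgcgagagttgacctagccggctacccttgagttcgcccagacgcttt
Uqcr11: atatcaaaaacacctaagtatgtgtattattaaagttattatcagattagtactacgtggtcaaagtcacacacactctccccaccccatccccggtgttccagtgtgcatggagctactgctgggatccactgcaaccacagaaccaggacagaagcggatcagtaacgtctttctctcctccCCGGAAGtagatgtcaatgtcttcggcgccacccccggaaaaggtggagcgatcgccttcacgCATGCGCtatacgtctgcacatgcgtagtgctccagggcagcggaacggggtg
Cox6b1: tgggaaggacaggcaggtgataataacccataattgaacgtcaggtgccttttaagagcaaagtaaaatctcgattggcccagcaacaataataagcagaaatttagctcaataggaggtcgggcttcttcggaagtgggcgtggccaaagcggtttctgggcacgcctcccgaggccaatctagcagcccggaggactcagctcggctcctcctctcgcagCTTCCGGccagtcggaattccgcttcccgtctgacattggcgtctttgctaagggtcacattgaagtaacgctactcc
Atp5k: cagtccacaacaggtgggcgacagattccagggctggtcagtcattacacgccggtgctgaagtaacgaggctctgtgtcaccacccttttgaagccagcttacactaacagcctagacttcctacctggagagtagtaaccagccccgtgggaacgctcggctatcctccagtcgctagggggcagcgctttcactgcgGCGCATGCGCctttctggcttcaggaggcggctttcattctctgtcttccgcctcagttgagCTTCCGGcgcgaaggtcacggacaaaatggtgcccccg
Promoters were found for 74 member genes. Of these, 20.3% held the NRF1 letters, against 4.41% of 27025 genes with a promoter in the table, and 24.3% held the ETS letters, against 9.93% of all. Either motif was present for 27 of the 74 (36.5%, against 13.5% of all), and no member promoter had overlapping matches of both. A match is a string of letters in this window and no measurement of binding.

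All values are levels, the log2 processed signal minus the 75th percentile of the array, and are compared between arrays for 1 probe at a time. The arrays differed in quality. AAV-GFP replicate 3 had the lowest 75th percentile (log2 7.71, against 8.45 to 9.22 on the other 11) and the fewest probes well above background (22622, against 23012 to 27341). In it 15 of 87 members lay over 1 log2 unit below their median over the arrays and 3 lay over 1 above, while the other arrays had 0 to 5 and 0 to 3. Probes in general also scattered there, with 12.5% of all probes over 1 below and 17.1% over 1 above, beside 17.2% of the members below. The difference between upstream and downstream probes of 1187 transcripts outside the module was also lowest there (-0.22, against -0.12 to 0.21), with PBS replicate 3 (-0.12) and AAV-hGRB replicate 1 (-0.08) next. That definition was the second one tried and was picked after the values were seen. The first, over probes of the same gene 500 or more bases apart, gave 0 for AAV-GFP replicate 3 and was lowest in AAV-GFP replicate 2 (-0.08), and over transcripts with probes 10000 or more bases apart it was 0.11. Nr3c1, the mouse gene of GR, had mean levels of 0.40 ± 0.16 (AAV-hGRB), 0.34 ± 0.20 (AAV-GFP) and 0.37 ± 0.15 (PBS), with SD and n = 4 each, and whether its probe lies in the deleted part is not given, so it does not check the labels. Of the hepatocyte markers, Alb was 10.27 to 10.87 in AAV-hGRB, 10.47 to 11.20 in AAV-GFP and 10.23 to 10.92 in PBS. The markers differed in AAV-GFP replicate 3, where Alb was the highest of the 12 arrays. Cyp2e1 (5.87, against 7.53 to 8.72 on the others) and Cps1 (4.86, against 5.16 to 7.09) were lowest there. Ttr, Apoa1 and Tat lay within the range of the other arrays.

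In AAV-hGRB livers the respiratory chain and ATP synthase genes lay lower than in AAV-GFP livers by a small amount shared by most members, and no single gene passed the test. The median log2 change of the 87 genes was -0.32, against -0.05 for all 26625 probes tested, and 72 of 87 were below 0 (56.5% of all probes). limma with Benjamini-Hochberg adjustment called 0 of 87 members and 0 of all probes (0.0%), and the smallest adjusted p of a member was 1.0. At an unadjusted p under 0.05, 17 members were lower (19.5%, against 1.51% of all probes) and 0 were higher (1.84% of all probes). In 17 members (19.5%) all AAV-hGRB samples lay below all AAV-GFP samples, against 1.93% of all probes, and in 0 all lay above (1.05%). In whole liver, fewer cells of a type and less RNA per cell cannot be told apart.

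Without AAV-GFP replicate 3 the median was -0.38 and 85 of 87 members were below 0 (56.3% of all probes). Without AAV-GFP replicate 2, the sample in which the members were highest, the median was -0.21. Without AAV-GFP replicate 3, 26 members were lower at an unadjusted p under 0.05 (29.9%, against 3.1% of all probes), and in 41 the groups did not overlap, with AAV-hGRB lower (47.1%, against 6.15%). The smallest adjusted p was 0.50, for Atp5g1, so 0 members and 0.0% of all probes were called. Slide 3 held AAV-hGRB replicates 2 and 4 and no control array, so group and slide cannot be fully told apart. AAV-GFP replicate 4 was alone on slide 4 and was the only array scanned on day 2. On the 2 slides that held an array of both groups, the within-slide medians were -0.58 (slide 5, 81 of 87 lower, median of all probes 0.00) and -0.27 (slide 6, 50 of 87 lower, median of all probes -0.33). Slide 6 is the one with AAV-GFP replicate 3, and there the members lay no lower than the other probes.

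The members are bright, and bright probes in general lay lower in AAV-hGRB livers. Of the 87, 68 were among the brightest 10% of all probes tested. In that bin the 2582 probes outside the module had a median log2 change of -0.18 against AAV-GFP, with 79.0% below 0 and 3.52% lower at an unadjusted p under 0.05. The 68 members had a median of -0.33, with 89.7% below 0 and 20.6% lower at that p. Quantile normalization, which gives all arrays the same distribution of signals, left a median of -0.09 for the members and 0.00 for all probes. The share of the difference that goes with brightness was not tested.

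**Figure D1:**
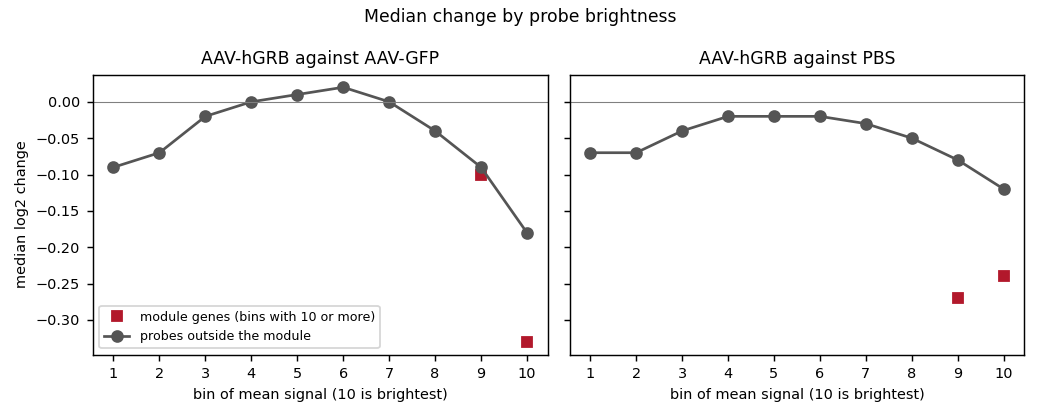
Median log2 change of probes in 10 equal bins of mean signal (x axis, 10 is the brightest), for probes outside the module (circles) and for module genes where a bin holds 10 or more (squares). In the brightest bin the squares lie at -0.33 (AAV-hGRB against AAV-GFP) and -0.24 (AAV-hGRB against PBS), and the circles at -0.18 and -0.12.

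**Figure D2:**
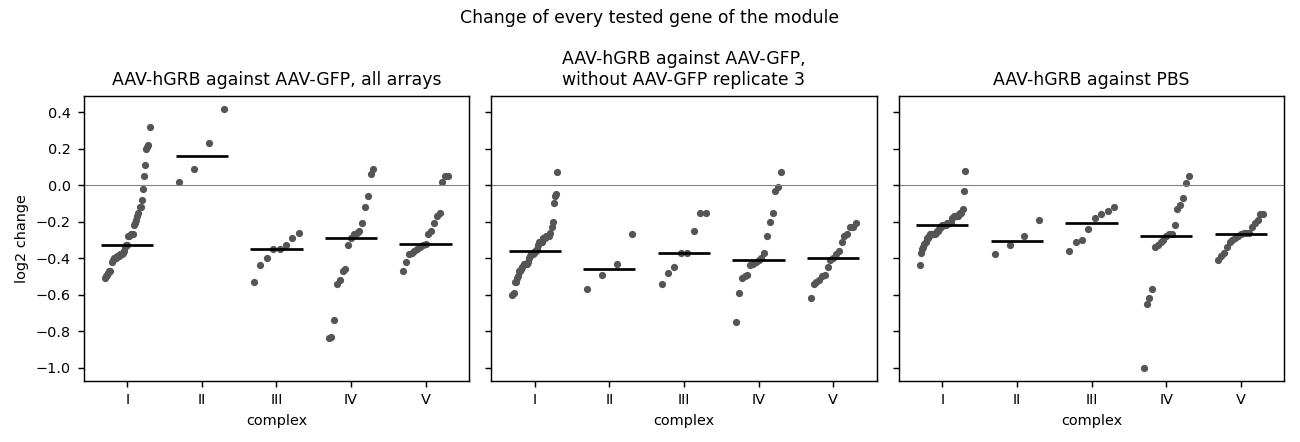
Log2 change of each of the 87 tested genes (y axis) by complex (x axis), with a line at the median. With all arrays complex II lies above 0 against AAV-GFP (median 0.16), and without AAV-GFP replicate 3 it lies below (median -0.46), while the medians of the other complexes lie below 0 in all panels.

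Against PBS, AAV-hGRB livers had a median log2 change of -0.26 over the 87 genes (-0.06 for all probes), with 84 below 0 (57.2% of all probes). limma called 0 members and 0.0% of all probes, with a smallest adjusted p of 0.87. At an unadjusted p under 0.05, 0 members were lower (2.98% of all probes) and 0 higher (2.86%). In 12 members (13.8%) AAV-hGRB lay below every PBS sample, against 2.45% of all probes, and in 0 above (2.14%). The medians within slides 5 and 6 were -0.37 and -0.44, with medians over all probes of 0.04 and -0.21. AAV-hGRB is the group set against both others, so these comparisons share its samples.

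Between the control groups, AAV-GFP against PBS, the median was 0.08 (0.00 for all probes), with 37 members below 0 (49.4% of all probes) and 50 above (50.6%). limma called 0 members and 0.0% of all probes, and at an unadjusted p under 0.05 there were 0 members on either side (0.89% of probes lower and 0.792% higher). Groups did not overlap in 0 members (0.357% of probes lower and 0.582% higher). Leaving out AAV-GFP replicate 3 gave 0.13, with 77 members above 0 (48.9% of all probes). The median was -0.15 within slide 6, and -0.02 when AAV-GFP replicate 2 was left out.

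Complex I, the NADH dehydrogenase, had 35 of 41 genes below 0 in AAV-hGRB against AAV-GFP, with a median log2 change of -0.33 (-0.36 without AAV-GFP replicate 3). The mean level of its genes was 5.11, 5.20, 5.11 and 5.15 in the AAV-hGRB samples, 5.32, 5.71, 5.08 and 5.44 in AAV-GFP, and 5.23, 5.28, 5.40 and 5.56 in PBS. All 4 AAV-hGRB samples lay below all PBS samples and below 3 of the AAV-GFP samples. Assembly factors had a median of -0.17 over 5 genes, and subunits -0.34 over 36. These medians were -0.31 and -0.36 without AAV-GFP replicate 3.

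Ndufs7, a core subunit that carries an iron-sulfur cluster, had levels of 6.34, 6.43, 6.05 and 6.31 in AAV-hGRB, 6.51, 6.77, 6.91 and 6.83 in AAV-GFP, and 6.32, 6.37, 6.96 and 6.65 in PBS. AAV-hGRB lay below every AAV-GFP sample and overlapped PBS. The log2 change was -0.47 ± 0.19 against AAV-GFP (SE, unadjusted p = 0.032, limma adjusted p = 1.0). Ndufa12 (-0.47 ± 0.18) and Ndufa3 (-0.51 ± 0.23), accessory subunits, also had groups that did not overlap.

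Ndufs1, the large subunit of the NADH module, had levels of 4.42, 4.68, 4.80 and 4.79 in AAV-hGRB, 5.23, 5.42, 4.40 and 4.97 in AAV-GFP, and 4.94, 5.02, 4.95 and 5.14 in PBS. AAV-hGRB lay below every PBS sample, and below AAV-GFP apart from replicate 3. Ndufv1, which binds NADH and flavin, had the same pattern, with changes of -0.27 ± 0.21 against AAV-GFP (-0.43 without replicate 3) and -0.35 ± 0.21 against PBS.

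Further complex I genes were named for their rank by unadjusted p in a comparison or, for Ndufaf3, for groups that did not overlap. In AAV-GFP against PBS, the comparison for which Ndufb4, Ndufa13 and Ndufaf7 were named, 0 members had an unadjusted p under 0.05. Ndufa11 was -0.37 ± 0.17 against AAV-GFP and -0.29 ± 0.17 against PBS, with AAV-hGRB below every sample of both groups. Ndufb4 was -0.50 ± 0.23 in AAV-hGRB against AAV-GFP, and its AAV-GFP against PBS change was 0.32 ± 0.23. Ndufa13, also known as GRIM-19, was -0.34 ± 0.21 in AAV-hGRB against AAV-GFP, and -0.20 without AAV-GFP replicate 3. Its AAV-GFP against PBS change was 0.31 ± 0.21, and 0.17 without that array. The assembly factor Ndufaf3 lay below every PBS sample in AAV-hGRB (-0.32 ± 0.30), and Ndufaf7 was 0.20 ± 0.31 against AAV-GFP (0.07 without AAV-GFP replicate 3).

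Complex II, succinate dehydrogenase, which also works in the citric acid cycle, was the complex whose result turned on 1 array. With all arrays its 4 genes were all above 0 in AAV-hGRB against AAV-GFP (median 0.16), and without AAV-GFP replicate 3 all 4 were below 0 (median -0.46). Sdha, the flavin subunit, had levels of 2.12, 2.70, 3.50 and 3.29 in AAV-hGRB, 3.48, 3.71, -0.48 and 3.24 in AAV-GFP, and 3.71, 3.35, 2.08 and 3.58 in PBS. Sdhb, the iron-sulfur subunit, had 3.92, 4.65, 5.18 and 4.77 in AAV-hGRB, 5.08, 5.34, 2.22 and 4.94 in AAV-GFP, and 5.30, 5.09, 4.34 and 5.11 in PBS. AAV-GFP replicate 3 was the lowest value of all for both, and AAV-hGRB replicate 1 and PBS replicate 3 were the lowest of their groups. The changes were 0.42 ± 0.79 and 0.23 ± 0.58 with all arrays, and -0.57 and -0.49 without AAV-GFP replicate 3. Against PBS they were -0.28 ± 0.79 and -0.33 ± 0.58.

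**Figure D3:**
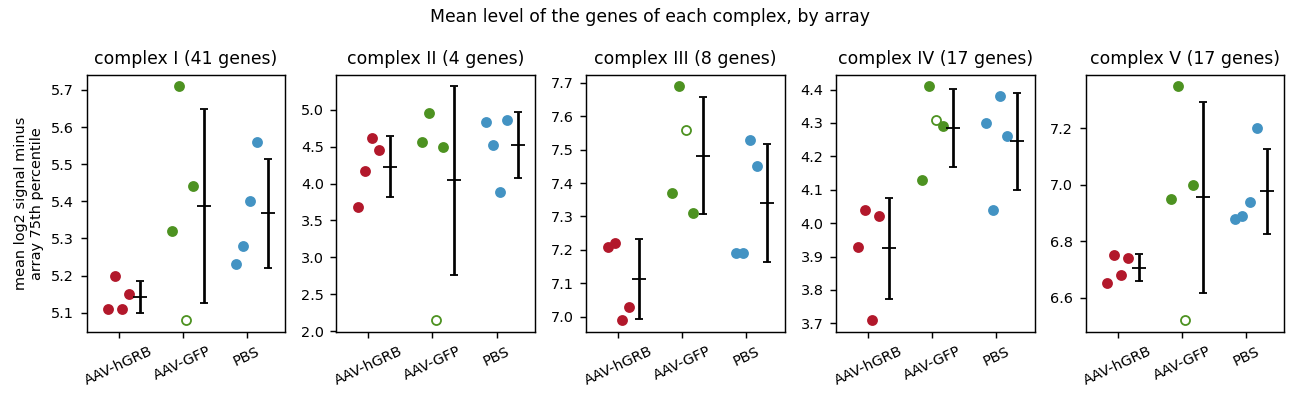
Mean level of the tested genes of each complex (y axis, log2 signal minus the array's 75th percentile) in each array, with mean and SD beside the points. The open circle is AAV-GFP replicate 3, which lies at 2.15 for complex II, against 4.50 to 4.96 in the other AAV-GFP samples.

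Complex III, the cytochrome bc1 complex, had 8 of 8 genes below 0 in AAV-hGRB against AAV-GFP (median -0.35, and -0.37 without AAV-GFP replicate 3) and 8 of 8 below 0 against PBS (median -0.21). Uqcr11, a small subunit, had levels of 7.77, 7.75, 7.43 and 7.62 in AAV-hGRB, 7.93, 8.31, 8.41 and 8.03 in AAV-GFP, and 7.72, 7.82, 8.23 and 8.01 in PBS. AAV-hGRB lay below every AAV-GFP sample, with a log2 change of -0.53 ± 0.19 (SE, unadjusted p = 0.016, limma adjusted p = 1.0), or 0.694-fold. Uqcrc1, a core subunit of the matrix arm, was -0.44 ± 0.18, and Uqcrfs1, the Rieske iron-sulfur protein, -0.29 ± 0.22. Leaving out AAV-GFP replicate 3 gave -0.37 for Uqcrc1 and -0.15 for Uqcrfs1. Uqcr10 lay below every PBS sample in AAV-hGRB (-0.31 ± 0.21).

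Complex IV, cytochrome c oxidase, had 15 of 17 genes below 0 in AAV-hGRB against AAV-GFP (median -0.29, and -0.41 without AAV-GFP replicate 3), and 15 of 17 against PBS (median -0.28). Cox4i1, the subunit 4 isoform found in most tissues, had levels of 8.10, 8.14, 7.93 and 8.25 in AAV-hGRB, 8.41, 8.79, 8.74 and 8.66 in AAV-GFP, and 8.04, 8.23, 8.78 and 8.46 in PBS. AAV-hGRB lay below every AAV-GFP sample and overlapped PBS. The log2 change was -0.54 ± 0.20 against AAV-GFP (SE, unadjusted p = 0.016, limma adjusted p = 1.0) and -0.27 ± 0.20 against PBS.

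Cox5b (-0.52 ± 0.21) and Cox6b1 (-0.46 ± 0.17), nuclear subunits of the enzyme, likewise had AAV-hGRB below every AAV-GFP sample. Cox7b was -0.47 ± 0.21 and Cox6c -0.33 ± 0.21 (-0.20 without AAV-GFP replicate 3), with overlapping groups. Cox5a had levels of 6.57, 6.90, 7.15 and 7.30 in AAV-hGRB, 7.25, 7.71, 5.15 and 7.45 in AAV-GFP, and 7.42, 7.43, 6.74 and 7.64 in PBS. As in complex II, its low sample was AAV-GFP replicate 3, and its change was 0.09 ± 0.47 with that array and -0.49 without it.

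**Figure D4:**
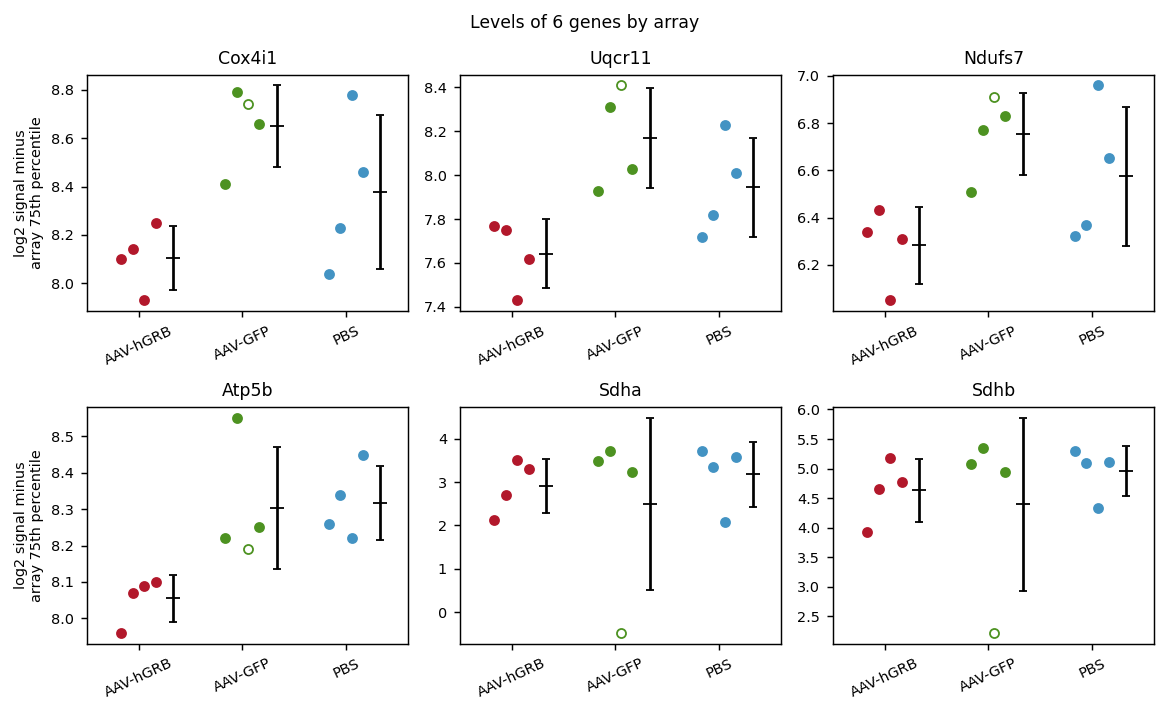
Levels of 6 genes (y axis, log2 signal minus the array's 75th percentile, scales differ) by group, with mean and SD beside the points and AAV-GFP replicate 3 as an open circle. Cox4i1, Uqcr11, Ndufs7 and Atp5b have AAV-hGRB below every AAV-GFP sample, while Sdha and Sdhb overlap and have AAV-GFP replicate 3 far below the rest.

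Complex IV has isoforms that differ between tissues. Of the forms of most tissues, Cox6a1 was -0.26 ± 0.17, Cox7a2 -0.29 ± 0.24 and Cox8a -0.27 ± 0.19 in AAV-hGRB against AAV-GFP, and Cox7a2l, a relative of Cox7a2 that takes part in supercomplexes, was 0.06 ± 0.22. Leaving out AAV-GFP replicate 3 gave -0.50 for Cox7a2, -0.42 for Cox8a and -0.03 for Cox7a2l. Cox7a2 and Cox8a lay below every PBS sample in AAV-hGRB. Of the forms of heart and skeletal muscle, Cox7a1 had levels of 1.87, 1.51, 1.12 and 1.17 in AAV-hGRB, 1.71, 2.99, 2.48 and 1.81 in AAV-GFP, and 1.81, 1.66, 2.67 and 2.11 in PBS. Its change was -0.83 ± 0.32 against AAV-GFP (SE, unadjusted p = 0.025, limma adjusted p = 1.0), with overlapping groups, and -0.75 without AAV-GFP replicate 3. The highest Cox7a1 samples were AAV-GFP replicates 2 and 3 and PBS replicate 3.

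Cox7a1 is also known from brown fat, so adipocyte markers were set beside it. Adipoq, the hormone adiponectin, was -4.25, -4.72, -5.14 and -4.84 in AAV-hGRB, -4.51, -1.23, -3.42 and -4.34 in AAV-GFP, and -3.29, -4.96, -1.62 and -4.73 in PBS. AAV-GFP replicate 2 and PBS replicate 3 were the highest for Adipoq, and also for Plin1, perilipin of the fat droplet, at -2.76 and -2.97. Plin1 was well above background on only 3 arrays. Cidea and Fabp4, which were so on all 12, had other orders. Cidea was highest in PBS replicates 1 and 3 (1.74 and 1.48), with AAV-GFP replicate 2 at -0.92. Fabp4 was highest in AAV-GFP replicate 2 and PBS replicate 1 (4.03 and 3.80). Of the 5 adipocyte markers, 3 were tested, 2 were well above background on every array and 1, Ucp1, on none. Their summed signal was 7.61 to 13.5 in AAV-hGRB, 5.12 to 17.4 in AAV-GFP and 6.83 to 17.4 in PBS, and their part in the Cox7a1 values was not tested.

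Cox8b was -3.51, -3.50, -4.13 and -3.57 in AAV-hGRB, -3.60, -2.94, -2.09 and -2.72 in AAV-GFP, and -1.21, -3.04, -2.04 and -4.44 in PBS. Cox6a2 was -1.88, -1.97, -2.50 and -1.54 in AAV-hGRB, -3.10, -2.48, -1.51 and -0.55 in AAV-GFP, and 0.09, -2.65, -1.78 and -1.07 in PBS. For both, PBS replicate 1 was the highest of the 12 arrays. In that array the skeletal muscle markers were also high. Mb, myoglobin, was 0.41 there and -6.89 to -5.22 on the others, and Acta1, skeletal actin, was 0.63 there and -5.38 to -3.42 on the others. Of the 6 muscle markers, 2 were tested, 0 were well above background on every array and 1 was so on none. Their summed signal relative to the 75th percentile was 0.115 to 0.21 in AAV-hGRB, 0.163 to 0.344 in AAV-GFP and 0.125 to 3.98 in PBS, and their part in the isoform values was not tested.

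Cox4i2, the isoform known from lung, was well above background on 4 of 12 arrays, and Cox6b2, known from testis, on all 12 with a change of -0.21 ± 0.31 against AAV-GFP. Cox7b2 and Cox8c, also known from testis, were well above background on 0 arrays.

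Complex V, ATP synthase, had 14 of 17 genes below 0 in AAV-hGRB against AAV-GFP (median -0.32) and 17 of 17 without AAV-GFP replicate 3 (median -0.40). Against PBS, 17 of 17 were below 0 (median -0.27). Of the 3 genes for the identical c-ring subunit, Atp5g2 was 6.17, 6.14, 5.95 and 6.22 in AAV-hGRB, 6.55, 6.66, 6.22 and 6.72 in AAV-GFP, and 6.23, 6.42, 6.42 and 6.45 in PBS. Every AAV-hGRB sample was below every PBS sample, and the change against AAV-GFP was -0.42 ± 0.17. Atp5g1 was -0.34 ± 0.25 and Atp5g3 0.02 ± 0.33. Without AAV-GFP replicate 3 the 3 changes were -0.52, -0.62 and -0.36.

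Atp5a1, the alpha subunit of the catalytic head, was 0.05 ± 0.30 against AAV-GFP with all arrays and -0.23 without AAV-GFP replicate 3. Its other probe was -0.12 against AAV-GFP with all arrays, and against PBS its 2 probes were -0.39 and -0.26. Atp5e, the epsilon subunit, was -0.47 ± 0.23 against AAV-GFP, with groups that did not overlap. Atp5k, subunit e of the membrane part, was -0.41 ± 0.23 against PBS, with AAV-hGRB below every PBS sample.

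Atp5b, the catalytic beta subunit, is read by 3 probes that differ. The brightest lies at chr10:127591587-127591646 (mm7, plus strand), downstream of the others, and had levels of 7.96, 8.07, 8.09 and 8.10 in AAV-hGRB, 8.22, 8.55, 8.19 and 8.25 in AAV-GFP, and 8.26, 8.34, 8.22 and 8.45 in PBS. AAV-hGRB lay below every sample of both other groups (-0.25 ± 0.16 against AAV-GFP and -0.26 ± 0.16 against PBS). The upstream probes, whose sequences are shown because the reading of the gene turns on them, have no capitals, and the 60 bases of the second are split over its span.
Atp5b probe at chr10:127586901-127586960: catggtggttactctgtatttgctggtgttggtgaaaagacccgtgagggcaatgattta
Atp5b probe at chr10:127585810-127586488: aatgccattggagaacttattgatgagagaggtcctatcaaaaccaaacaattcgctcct
The first of these had levels of 3.27, 3.91, 5.25 and 4.81 in AAV-hGRB, 4.52, 5.10, 0.96 and 4.53 in AAV-GFP, and 5.66, 4.88, 2.94 and 5.14 in PBS. AAV-GFP replicate 3, PBS replicate 3 and AAV-hGRB replicate 1 were the lowest of their groups on both upstream probes. The changes of the upstream probes against AAV-GFP were 0.53 and 0.38 with all arrays, and -0.40 and -0.16 without AAV-GFP replicate 3, where the brightest probe was -0.28. Against PBS they were -0.35 and -0.28, so their sign differed from that of the brightest probe only against AAV-GFP with replicate 3 included. Uqcrq, a small subunit of complex III, had -0.40 ± 0.22 on its brightest probe and 0.41 on a dim one (-0.25 and 0.82 without AAV-GFP replicate 3). Against PBS these 2 Uqcrq probes also differed in sign, at -0.14 and 0.62. Atp5pb, the stalk subunit b, had 0.05 on its brightest probe and 0.20 and -0.27 on the others in AAV-hGRB against AAV-GFP. In that comparison the 3 Atp5pb probes were all below 0 without AAV-GFP replicate 3, at -0.38, -0.23 and -0.10. They ran from -0.27 to -0.06 in AAV-hGRB against PBS, and from -0.32 to 0.21 in AAV-GFP against PBS.

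**Figure D5:**
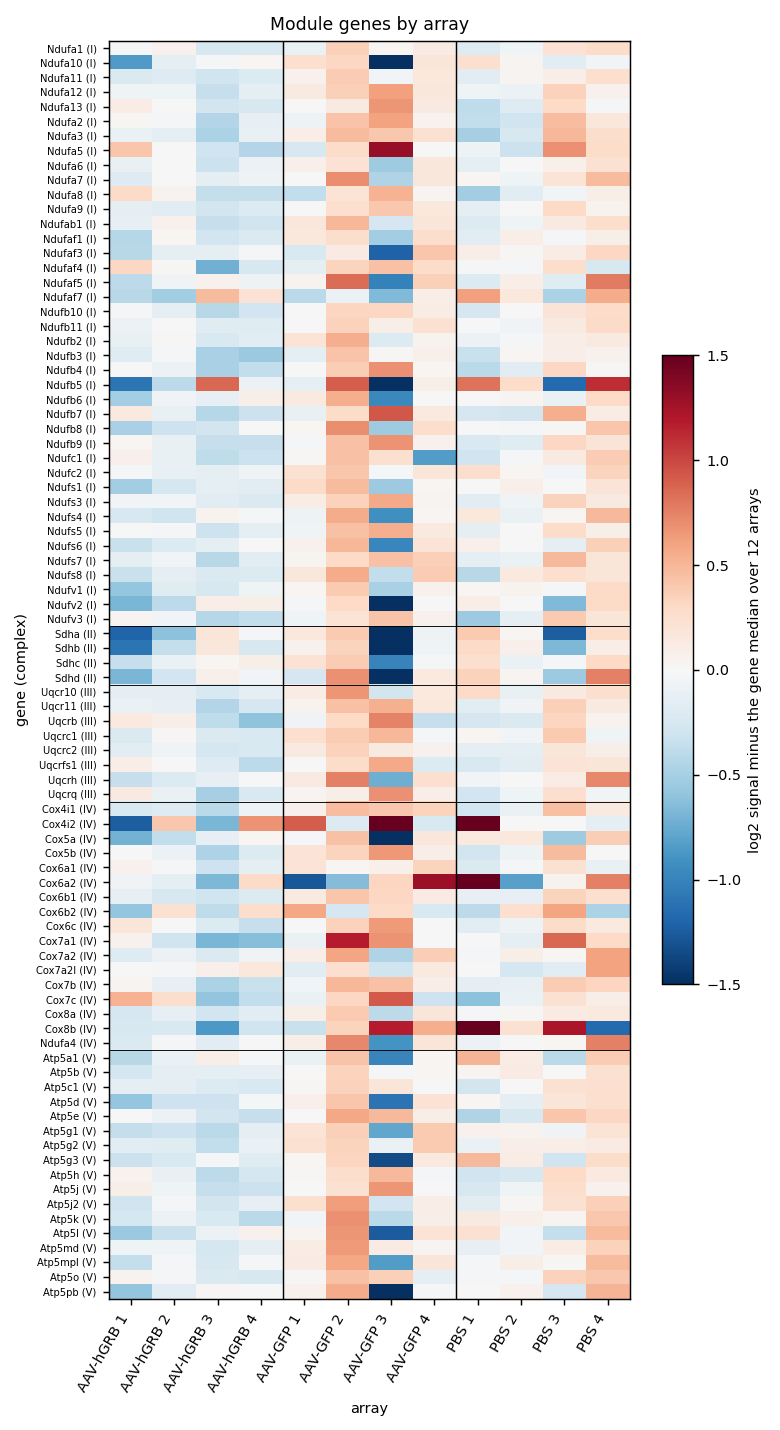
Levels of 86 tested genes (rows, by complex) in the 12 arrays (columns) as the difference from the gene's median, in log2 units, with colours ending at 1.5 either way. The AAV-hGRB columns are mostly pale blue, and the AAV-GFP replicate 3 column holds both deep blue and red genes.

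Other genes of the pathway were read from lists. Of 6 electron carriers and related genes (such as Cycs, cytochrome c), 6 were below 0 in AAV-hGRB against AAV-GFP (median -0.26, and -0.40 without AAV-GFP replicate 3), and of 13 citric acid cycle genes 8 were (median -0.13, and -0.39 without AAV-GFP replicate 3). Of 32 assembly factors outside the rule, 24 were below 0 (median -0.15, and -0.28 without AAV-GFP replicate 3). Among 14 regulators of mitochondrial genes 8 were below 0 (median -0.06). limma called 0 genes of these lists. At an unadjusted p under 0.05, 2 citric acid cycle genes and 1 regulator (Tfb2m, -0.54 ± 0.21) were lower, against 1.51% of all probes. Ppargc1a, the coactivator PGC-1 alpha, was 0.47 ± 0.31, Nrf1 0.26 ± 0.21 and Gabpa 0.13 ± 0.19 (0.07 without AAV-GFP replicate 3). Against PBS, Nrf1, the gene of the factor whose letters were searched above, was 0.67 ± 0.21 in AAV-hGRB (SE, unadjusted p = 0.0078, limma adjusted p = 0.77). Its levels were -1.11, -1.21, -1.75 and -1.89 in AAV-hGRB, against -2.38, -2.0, -2.02 and -2.25 in PBS, so those groups did not overlap. AAV-GFP, at -1.65, -1.93, -1.7 and -1.73, also lay above every PBS sample (0.41 ± 0.21). Of all probes, 2.14% lay above PBS without overlap in AAV-hGRB, and 0.582% did in AAV-GFP. Nrf1 was the 1 regulator of 14 that was higher in AAV-hGRB than in PBS at an unadjusted p under 0.05 (2.86% of all probes). The subunits encoded by mitochondrial DNA were not read by name and are not analysed here. Emc8 and Dmac2l were -0.08 and -0.03 against AAV-GFP.

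Markers of other cells were also read. The 7 Kupffer cell and macrophage markers were all above 0 in AAV-hGRB against AAV-GFP (median 0.28), all 7 well above background on every array, with a summed signal of 98.4 to 202 in AAV-hGRB, 83.0 to 170 in AAV-GFP and 38.8 to 152 in PBS. Without AAV-GFP replicate 3 their median was 0.24, and Vsig4 was below 0 (-0.13). All 7 were also above 0 in AAV-GFP against PBS (median 0.20). Of 6 T and NK cell markers 5 were tested, all 5 above 0 (median 0.70), with summed signals of 4.3 to 13.2 in AAV-hGRB, 3.15 to 5.83 in AAV-GFP and 2.33 to 5.57 in PBS. The 6 hepatocyte markers had a median of -0.14 (-0.41 without AAV-GFP replicate 3), with 5 below 0, and sums of 1960 to 2560 in AAV-hGRB, 2350 to 2910 in AAV-GFP and 1950 to 2730 in PBS. Of 4 erythroid markers 3 were tested, all 3 well above background on every array and all 3 below 0 in AAV-hGRB against AAV-GFP (median -0.55, and -0.56 without AAV-GFP replicate 3). The erythroid sums were 98.5 to 123 in AAV-hGRB, 152 to 169 in AAV-GFP and 88.1 to 321 in PBS, so AAV-hGRB lay below AAV-GFP throughout and overlapped PBS. Of 4 neutrophil markers 3 were tested, 2 of them above 0 (median 0.86, and 1.15 without AAV-GFP replicate 3), with sums of 3.98 to 9.24 in AAV-hGRB, 1.51 to 5.86 in AAV-GFP and 6.37 to 8.94 in PBS.

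The other marker lists had median changes against AAV-GFP of -0.57 (cholangiocyte), -0.45 (testis), -0.34 (skeletal muscle), -0.24 (B cell), -0.01 (adipocyte), 0.11 (endothelial) and 0.11 (stellate cell). Without AAV-GFP replicate 3 they were, in the same order, -0.71, -0.28, -0.05, -0.01, 0.03, 0.24 and -0.04. Of the 4 cholangiocyte markers, Krt19 (2.79, against -1.61 to -0.04 on the other arrays), Krt7 (1.17) and Epcam (-1.69) were highest in AAV-GFP replicate 2. The other, Sox9, had a change above 0 (0.55 ± 0.35). limma called 0 of these markers. At an unadjusted p under 0.05, 3 of 5 tested T and NK cell markers were higher, against 1.84% of all probes. So were 2 of 3 tested neutrophil markers (S100a8 and S100a9). Lower at that p were 1 of 6 hepatocyte markers and 1 of 3 tested erythroid markers (Alas2, of haem synthesis), against 1.51% of all probes. Against PBS, the 3 tested neutrophil markers were all below 0 in AAV-hGRB (median -0.41) and in AAV-GFP (median -1.26). At an unadjusted p under 0.05 all 3 were lower than PBS in AAV-GFP (0.89% of all probes), and 1, Mpo, in AAV-hGRB (2.98%). The part of these cells in the module's values was not tested.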

How the data were processed

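Liver RNA was read on 12 one-colour Agilent arrays, 4 per group. Spot intensity was deposited by the authors as scanner output. The software was Agilent Feature Extraction 9.5.3.1 with background subtraction, per the file headers, and 9.5 per the submitters' processing notes. The deposited series matrix holds the same intensity values (540216 of 540216 within a relative 1e-06). Processed intensity was put on a log2 scale and averaged over the spots of a probe, control spots were left out, and each array's 75th percentile was subtracted. Probes well above background on at least 4 arrays (26625) were tested, 14549 were not. The brightest probe stood for a gene. Names came from the array design or the RefSeq table (GRCm38.p6, names and promoters only), and probe coordinates are mm7, per the file headers. All arrays entered 1 limma fit (limma 3.58.1, R 4.3.3, 9 residual degrees of freedom), two-sided, adjusted over all probes tested with a threshold of 0.05, and the script was tested on simulated data. Members named were those past the threshold, the 8 of lowest unadjusted p per comparison, core subunits, isoform families, members with probes of opposite sign and up to 6 with groups that did not overlap. A member that the rule names is not reported here by itself and stays in the counts. Members and lists were chosen with earlier results of these data known. Alternatives covered background correction, scaling, filters, array weights, slide, replicate number and each sample left out. The replicate numbers did not pair the samples (correlations of deviations from the group means between same-numbered samples from -0.43 to 0.59). The number of arrays limits the precision.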

Additional observations from a re-analysis of the deposited data

Results flagged for a closer look

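Of 138 sets of 4 samples examined, 12 had 1 sample that stood apart from the other 3 of its group by Dixon's gap criterion, and chance gives about 1 in 20. Of the 12, 5 were AAV-GFP replicate 3. In it Sdha was -0.48 (others 3.24 to 3.71), Sdhb 2.22 (4.94 to 5.34), Atp5g1 5.20 (6.18 to 6.37), the complex II mean 2.15 (4.50 to 4.96), and Uqcrq was high at 9.91 (9.26 to 9.32). In AAV-hGRB replicate 3, Cox8b was -4.13 (others -3.57 to -3.50), Ndufa3 4.86 (5.20 to 5.23) and Uqcr10 7.06 (7.14 to 7.15), and in AAV-hGRB replicate 2 Uqcrc1 was 6.48 (6.24 to 6.25). In AAV-GFP replicate 2, Atp5b was 8.55 (8.19 to 8.25). In PBS replicate 1, Atp5g2 was 6.23 (6.42 to 6.45) and Cox4i2 -3.75 (-5.46 to -5.31).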

How the results depend on the processing

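No member was called in any comparison under any alternative, and the smallest adjusted p of a member was 0.26 (Atp5g2 against AAV-GFP and Atp5g1 against PBS, both with array weights). With array weights 67 probes were called in AAV-hGRB against PBS, and with the upstream-downstream difference by gene as a covariate 1 probe was called in AAV-hGRB against AAV-GFP, against 0 in each case. The median change of the members kept its sign in all 30 alternatives for AAV-hGRB against AAV-GFP (-0.58 within slide 5 to -0.09 with quantile normalization) and for AAV-hGRB against PBS (-0.44 within slide 6 to -0.11 with quantile normalization). For AAV-GFP against PBS it kept it in 28 of 31, and was -0.15 within slide 6, -0.02 with quantile normalization and -0.02 without AAV-GFP replicate 2. Some alternatives could not move the median, so these counts overstate the number of separate checks. They were the series matrix values, no filter on dim probes, the replicate block and leaving out a sample of the group not compared. Within slide 6 the -0.27 against AAV-GFP kept the sign but was no lower than all probes (-0.33). Leaving out 1 sample gave -0.38 (without AAV-GFP replicate 3) to -0.21 (without AAV-GFP replicate 2) for AAV-hGRB against AAV-GFP, -0.28 to -0.18 (AAV-hGRB against PBS) and -0.02 to 0.14 between the control groups. The replicate block left the count of called members at 0. The covariates were chosen after the data were seen, the second (by transcript, 300 to 3000 bases) after the first had been fitted, and gave medians of -0.20 and -0.28 against AAV-GFP. The causes were not tested. With 4 samples a group, the median SE over all probes tested was 0.31 in AAV-hGRB against AAV-GFP. Changes of the size of the members' median are at about 1 SE for a typical probe. Members differed in this, with an SE of 0.18 for Ndufa1 and 0.48 for Ndufa10.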
